A study of Mus musculus with 56 samples.

Results

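TH2 cultures from mice whose T cells were to lack Odc were compared with TH2 cultures from WT mice across all expressed genes. The comparison holds 7 RNA-seq libraries of the 31 in the Odc count table. 4 are WT, numbered 1 to 4, and 3 are labelled Odc-deficient, numbered 2, 3 and 4. Replicate 1 of the Odc-deficient TH2 group was not analysed here. All 7 came from C57BL/6 mice carrying loxP-flanked Odc alleles. The mice labelled Odc-deficient also carried CD4Cre, a Cre recombinase under the CD4 promoter, which acts in T cells from the thymus onward, and the WT mice lacked Cre. The study's methods describe young adult littermates, and the labels give no age. CD4+ T cells of spleen and lymph nodes (naive CD4+ T cells in the study's methods) were obtained by negative selection, which depletes other cell types, and were activated by antibodies to CD3 (5 µg/mL) and CD28 (2 µg/mL), with IL-2 added at 100 U/mL. For TH2 polarization the medium held IL-4 and further IL-2, each at 10 ng/mL, beside an antibody to IFN-γ at 4 µg/mL. RNA was taken on day 4. The other libraries of the table come from TH1, TH17 and Treg cultures of the same 2 genotypes.

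Ornithine decarboxylase, the product of Odc1, converts ornithine to putrescine, the first polyamine, from which spermidine and spermine are built. Spermidine also donates the group that deoxyhypusine synthase (Dhps) and deoxyhypusine hydroxylase (Dohh) turn into hypusine, a modified amino acid of the translation factor eIF5A. TH2 cells are helper T cells formed when IL-4 acts through STAT6 to raise GATA3. They secrete IL-4, IL-5 and IL-13 and act against helminths and in allergy.

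The question was how the transcriptome of TH2-polarized cells differs when Odc is deleted. The 7 libraries held 6999984 to 8417521 counts each, so 3 counts, the upper limit that a count of 0 allows, stood for 0.367 to 0.437 CPM, counts scaled to a common library size. All such limits cover counting error only. Levels are given below in CPM, and changes as log2 fold changes of the libraries labelled Odc-deficient against WT. A gene was called when the change exceeded 2-fold with an adjusted p below 0.05 in edgeR's quasi-likelihood test. The words rose and fell are kept for called genes. The labels number the replicates without saying that each came from its own mouse, so p-values measure only the spread between these libraries.

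The targeted gene was measured first. Odc1 (chr12:17544794-17551505, GRCm38, plus strand) stood at 482, 549.5, 499.7 and 732 CPM in WT replicates 1 to 4 and at 499.6, 492 and 487 CPM in replicates 2, 3 and 4 labelled Odc-deficient. The ranges overlapped and the difference did not pass the test (log2 fold change -0.20 ± 0.18 SE, adjusted p = 0.339). Only some exons of the gene lie between the loxP sites, and the counts cover all exons, so this value checks the genotype only in part. The libraries are therefore named by their label throughout.

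Transcripts of the sex chromosomes did not match between the groups. The 3 libraries labelled Odc-deficient held 207, 198 and 209 CPM of 4 Y-linked genes (Ddx3y, Eif2s3y, Kdm5d and Uty) and at most 0.398 CPM of Xist, the RNA of the inactive X chromosome. WT replicate 2 was alike, with 307 CPM of Y-linked transcripts and 0.4 CPM of Xist. WT replicates 3 and 4 held 1830 and 1240 CPM of Xist with at most 0.146 CPM of Y-linked transcripts, and WT replicate 1 held both, 1140 CPM and 160 CPM. WT replicate 2 is thus the 1 WT library with the pattern of the other group. Against it alone 2872 genes were called, and the calls and differences that this removes among the genes named are given below. The study's methods describe mice of matched sex and state that males and females were both used.

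Over all genes the 2 groups of TH2 libraries differed widely. Of 13839 genes tested, 3478 were called (25.1%), 1591 higher (11.5%) and 1887 lower (13.6%). CPM did not overlap between the groups for 8459 genes (61.1%), which were 30.6% higher and 30.5% lower. Every count of a gene list below is read against these shares, and the median log2 fold change of all genes tested was 0. A further test asked which changes differed from those in the other cultures, by setting the TH2 log2 fold change against the mean of those in TH1, TH17 and Treg. It called 854 genes (6.17%), 243 of them more positive in TH2 (1.76%) and 611 more negative (4.42%). Among libraries of 1 sex-transcript pattern, WT replicate 2 is the only WT library in TH2 and also in each of TH1, TH17 and Treg. There the test has no replicated WT group in any culture, so a difference lost in that setting may reflect this. The value of the test is large wherever the mean of the other 3 cultures moves the other way, also from a low level.

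**Figure D1:**
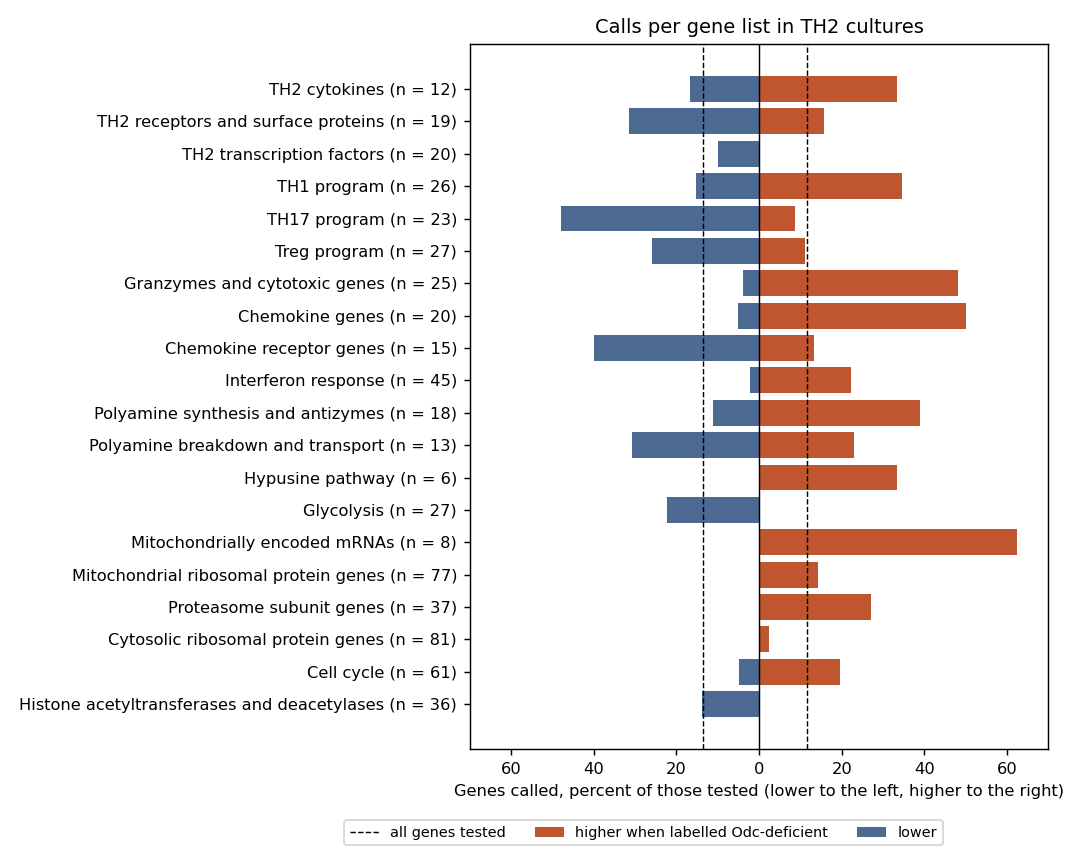
Percent of tested genes called lower (left, blue) and higher (right, red) in TH2 libraries labelled Odc-deficient against WT, for 20 gene lists, with n tested after each name and dashed lines at 13.6% lower and 11.5% higher, the shares of all genes tested. Chemokine, cytotoxic and TH1 genes lie mostly to the right, and TH17, chemokine receptor and glycolysis genes mostly to the left.

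Markers of the cells in the cultures were examined before the lineage genes. T cell identity genes were abundant in all 7 libraries. Their summed level was 6614 to 7313 CPM in WT and 4574 to 5169 CPM in libraries labelled Odc-deficient. Of 18 tested, 4 fell and 0 rose, with a median log2 fold change of -0.60. Cd4, the coreceptor, was at 742, 720.4, 718 and 604 CPM in WT and at 334, 353 and 353 CPM in the other group (log2 fold change -1.01 ± 0.26 SE, adjusted p = 0.00168). This value lies on the 2-fold line, at -0.98 without replicate 2 labelled Odc-deficient and -0.996 without WT replicate 1, so the call is lost without either. Cd3e, a chain of the T cell receptor complex, had a log2 fold change of -0.69 and Trac, the receptor alpha constant region, -0.98, both short of the fold threshold.

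Markers of B cells moved the other way. Their sum was 542 to 873 CPM in WT and 2165 to 3104 CPM in libraries labelled Odc-deficient, and 13 of 18 tested rose while 1 fell. Pax5, the transcription factor of B cell identity, was at 5.63, 2.93, 6.55 and 9.04 CPM in WT and 74.6, 38.9 and 47.9 CPM in the other group (log2 fold change 3.16 ± 0.56 SE, adjusted p = 4.21e-05). Ighm and Igkc, which encode immunoglobulin chains, averaged 113 and 31.1 CPM in WT against 408 and 399.5 CPM. In bulk RNA, a different number of cells of a type and a different amount of RNA per cell cannot be told apart.

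Markers of other T cells and of further cell types were also examined. 9 of 11 gamma-delta T cell genes rose, among them Trdc, the delta chain constant region, from 13.4 to 52.1 CPM, although the summed list, which also holds Maf, overlapped (117 to 269 CPM in WT and 187 to 223 CPM in the other group). Basophil and mast cell genes numbered 11 higher and 2 lower of 18, with Mcpt8, a basophil protease, at 2.00 CPM in WT and 18.6 CPM in the other group, and Cpa3, a mast cell carboxypeptidase, at 0.383 and 13.2 CPM. Against WT replicate 2 alone neither call held (adjusted p = 0.188 and 0.114), nor did that of the B cell gene Cd79a (adjusted p = 0.0698). The summed basophil list, which also holds Il4 and Cyp11a1, was 186 to 346 CPM in WT and 148 to 230 CPM in libraries labelled Odc-deficient. CD8 T cell and NK cell genes summed to 21.9 to 38.6 CPM in WT and 46.2 to 51.6 CPM in the other group, with Cd8a at no more than 7.14 CPM in any of the 7. The myeloid list summed to 118 to 224 CPM in WT and 850 to 1160 CPM in the other group, with 5 higher and 2 lower of 16 tested and a median log2 fold change of 2.43. Cd74, the class II invariant chain also made by B cells, averaged 110 and 958 CPM and so made up most of this sum in both groups. The others that rose were Spi1, the factor PU.1, from 1.33 to 8.74 CPM, Cybb, an oxidase subunit of phagocytes, from 0.733 to 7.73 CPM, and Mpo and Cebpa, which averaged 1.43 and 0.514 CPM in the other group. Cd68 and Ly6g fell, from 16.03 to 5.15 CPM and from 7.20 to 0.64 CPM. Mpo, Cebpa and Ly6g were no longer called against WT replicate 2 alone. Their log2 fold changes there were 6.46, 5.03 and -3.44, beside 4.87, 5.05 and -3.45 with all WT libraries. The call of Mpo was also lost without replicate 2 labelled Odc-deficient (adjusted p = 0.0517). That of Cebpa was lost without replicate 3 (0.0554) and that of Ly6g without replicate 2 or 4 (0.0802 and 0.0725). Among the 9 members tested and not called, Lyz2, Csf1r and Itgam averaged at most 0.822 CPM in either group, and the others are not given here. Dendritic cell genes summed to 192.5 to 274 CPM in WT and 288 to 388 CPM in the other group, with 1 higher and 0 lower of 6 tested. The negative selection at isolation is meant to remove all of these cells apart from CD4+ T cells, and the part of any that remained in the results that follow was not tested.

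**Figure D2:**
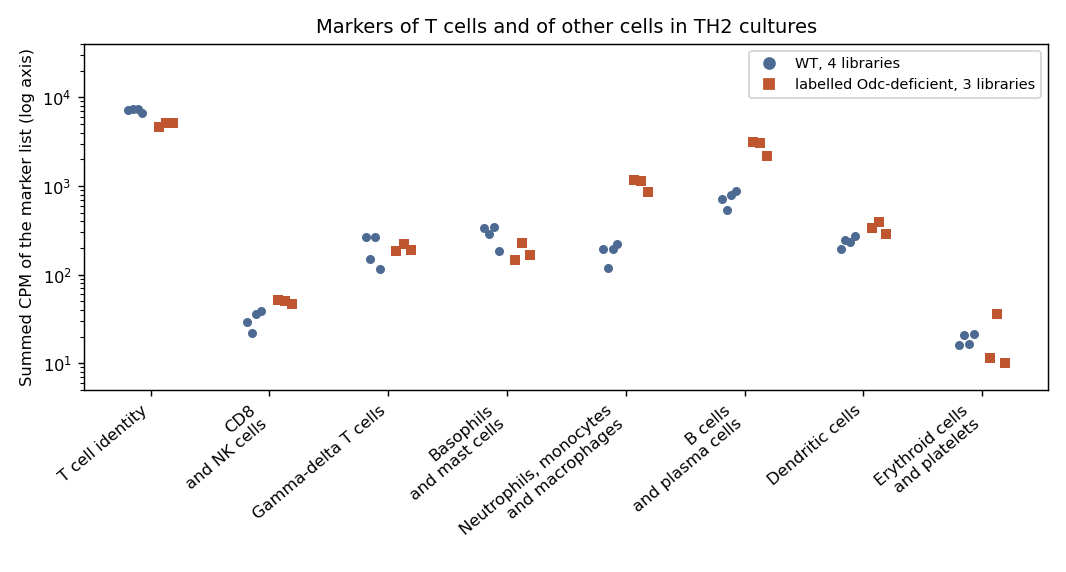
Summed CPM (log axis) of 8 marker lists in each of the 4 WT (blue circles) and 3 labelled Odc-deficient (red squares) TH2 libraries. T cell markers lie lower, at 4574 to 5169 against 6614 to 7313 CPM, and B cell markers higher, at 2165 to 3104 against 542 to 873 CPM, in the libraries labelled Odc-deficient.

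TH2 lineage genes were retained in part. The signature cytokines did not pass the test, whereas other genes of the TH2 cytokine and receptor lists moved in both directions. Gata3, the defining transcription factor of TH2 cells, was at 269, 266, 259.8 and 236 CPM in WT and at 118, 147 and 158 CPM in libraries labelled Odc-deficient. All 3 of the latter lay below all 4 WT libraries. The log2 fold change of -0.87 ± 0.20 SE had an adjusted p of 0.000603 but fell short of the fold threshold.

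Il4, the cytokine that both induces and marks TH2 cells, was at 66.1, 61.1, 69.5 and 36.1 CPM in WT and 36.7, 45.4 and 55.2 CPM in the other group (log2 fold change -0.35 ± 0.35 SE, adjusted p = 0.399). Il5, which drives eosinophils, was at 39.4, 38.0, 42.6 and 74.3 CPM and 22.4, 53.4 and 24.2 CPM (log2 fold change -0.54 ± 0.36 SE, adjusted p = 0.202). Il13, which acts on epithelium and smooth muscle, was at 277, 320.1, 349 and 667 CPM and 674, 743 and 579.5 CPM (log2 fold change 0.72 ± 0.36 SE, adjusted p = 0.0862). All 3 genes overlapped between the groups. WT replicate 4 was the highest WT library for Il5 and Il13 and the lowest for Il4. Without it the log2 fold change of Il13 was 1.08 with an adjusted p of 0.0136, and without replicate 3 labelled Odc-deficient that of Il5 was -1.06 with an adjusted p of 0.031.

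The test against the other cultures was passed for Il4 and Il5, whose levels there were low. The log2 fold changes of Il4 were 1.86 in TH1, 0.85 in TH17 and 1.34 in Treg, and the test against them gave a more negative value in TH2 (difference -1.70 ± 0.48 SE, adjusted p = 0.0142). Without replicate 2 labelled Odc-deficient this difference was -1.56 with an adjusted p of 0.0574. WT means of Il4 elsewhere were 0.726 CPM in TH1, 1.56 in TH17 and 0.858 in Treg, and those of Il5 0.291, 0.145 and 0.168 CPM, below the level of 3 counts (0.31 to 0.499 CPM over the 31 libraries). Il5 gave 0.13 in TH1, 2.21 in TH17 and 2.05 in Treg (difference -2.00 ± 0.67 SE, adjusted p = 0.0386), a call that was lost without any one of 4 libraries, with adjusted p values of 0.101, 0.0983, 0.051 and 0.0679 without replicates 2 and 4 labelled Odc-deficient and WT replicates 3 and 4. Against WT replicate 2 alone neither difference passed, with adjusted p values of 0.0802 and 0.187.

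Among 12 TH2 cytokine genes 4 rose and 2 fell, with a median log2 fold change of 0.36. Csf2, which encodes GM-CSF, was at 4.53, 2.93, 4.28 and 9.47 CPM in WT and 60.7, 19.1 and 27.8 CPM in libraries labelled Odc-deficient (log2 fold change 2.76 ± 0.41 SE, adjusted p = 4.68e-06). The groups were separate, with replicate 2 labelled Odc-deficient the highest. Il6, which with TGF-β drives TH17 cells, averaged 0.858 ± 0.606 (SD, n = 4) and 13.7 ± 4.88 CPM (SD, n = 3), with a log2 fold change of 4.00. Il9, the mast cell growth factor, rose by 2.98 on the log2 scale (adjusted p = 0.00752), and Lif, a cytokine of the IL-6 family, fell from 1158 ± 70.1 to 359.8 ± 56.3 CPM (log2 fold change -1.69 ± 0.35 SE, adjusted p = 0.000216). Against WT replicate 2 alone the calls of Il9 and Lif were lost, with adjusted p values of 0.209 and 0.052. The rise of Csf2 exceeded that in the other cultures (difference 1.90 ± 0.47 SE, adjusted p = 0.00604), but not without replicate 2 labelled Odc-deficient, where the difference was 1.29 with an adjusted p of 0.0794, or against WT replicate 2 alone (adjusted p = 0.103).

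TH2 receptors and surface proteins numbered 3 higher and 6 lower of 19 tested, with a median log2 fold change of -0.72. Il4ra, the IL-4 receptor alpha chain, was at 1444, 1366, 1301 and 1225 CPM in WT and 500.5, 644 and 576 CPM in the other group (log2 fold change -1.22 ± 0.18 SE, adjusted p = 5.56e-06). Ccr8, a chemokine receptor of TH2 cells, was at 149, 135, 129.5 and 137 CPM and 40.4, 64.7 and 54.1 CPM (log2 fold change -1.37 ± 0.26 SE, adjusted p = 7.93e-05). Icosl, the ICOS ligand, averaged 9.23 ± 4.00 and 1.47 ± 0.38 CPM, and Il9r, the IL-9 receptor, 8.37 ± 2.40 and 1.22 ± 0.741 CPM. None of these 4 genes overlapped between the groups. Il1rl1, the receptor for IL-33, rose from 2.10 ± 0.147 to 7.45 ± 2.63 CPM (log2 fold change 1.82, adjusted p = 0.0126), a call lost without replicate 3 labelled Odc-deficient (1.49, adjusted p = 0.0689) and against WT replicate 2 alone (adjusted p = 0.234). Plcd1, a phospholipase C of the same list, fell by 1.77 on the log2 scale.

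Several of these falls exceeded the mean change of the other cultures. Ccr8 gave -0.20 in TH1, 1.4 in TH17 and 0.82 in Treg (difference -2.05 ± 0.30 SE, adjusted p = 4.19e-05), Icosl -0.70 in TH1, 1.49 in TH17 and 2.50 in Treg (difference -3.74 ± 0.45 SE, adjusted p = 2.11e-06), and Il9r 0.01 in TH1, 0.95 in TH17 and 0.39 in Treg (difference -3.21 ± 0.60 SE, adjusted p = 0.000522), from WT means of 1.02, 0.46 and 2.72 CPM. Cyp11a1, the first enzyme of steroid synthesis and a gene of TH2 cells and mast cells, was at 264, 213, 265 and 132 CPM in WT and at 30.9, 73.1 and 48.7 CPM in libraries labelled Odc-deficient (log2 fold change -2.10 ± 0.35 SE, adjusted p = 1.98e-05). Its log2 fold changes elsewhere were -0.59 in TH1, 1.61 in TH17 and 1.22 in Treg (difference -2.85 ± 0.39 SE, adjusted p = 1.89e-05). The difference of Ccr8 had an adjusted p of 0.068 against WT replicate 2 alone.

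TH2 transcription factor genes numbered 0 higher and 2 lower of 20, with a median of -0.48. Maf, which drives Il4 transcription, was at 237, 134, 227 and 78.3 CPM in WT and 27.2, 57.0 and 37.7 CPM in the other group (log2 fold change -2.06 ± 0.38 SE, adjusted p = 7.55e-05). WT replicates 1 and 3 were the highest, and WT replicate 4 the lowest of the WT libraries, still above all 3 of the other group.

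WT signatures gave a wider view of lineage identity. For each subset, up to 100 genes were taken that were higher in its WT libraries than in those of each of the other 3 subsets in the Dohh count table, so that no library of the TH2 Odc comparison had a part in the choice. Of 94 TH2 signature genes tested, 14 rose and 49 fell (52.1%), with a median log2 fold change of -1.21. Of 92 TH1 signature genes, 28 rose and 16 fell, with a median of 0.43. Of 92 TH17 signature genes, 14 rose and 28 fell, with a median of -0.50. Of 88 Treg signature genes, 21 rose and 6 fell, with a median of 0.81. Many of these 88 lay near or below the level of 3 counts in both groups, such as Krt81 (mean 0 CPM in WT and 0.042 CPM in the other group) and Prm2 (0 and 0.043 CPM). Those that rose reached from near that level, as Tnfrsf11a (0 and 0.262 CPM), to well above it, as Rgs16 (28.8 and 74 CPM). The Treg median thus rests in part on such low counts. In signatures of up to 50 genes, the TH1 share that fell was 6.67% in place of 17.4% and the Treg share that rose 15.9% in place of 23.9%.

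**Figure D3:**
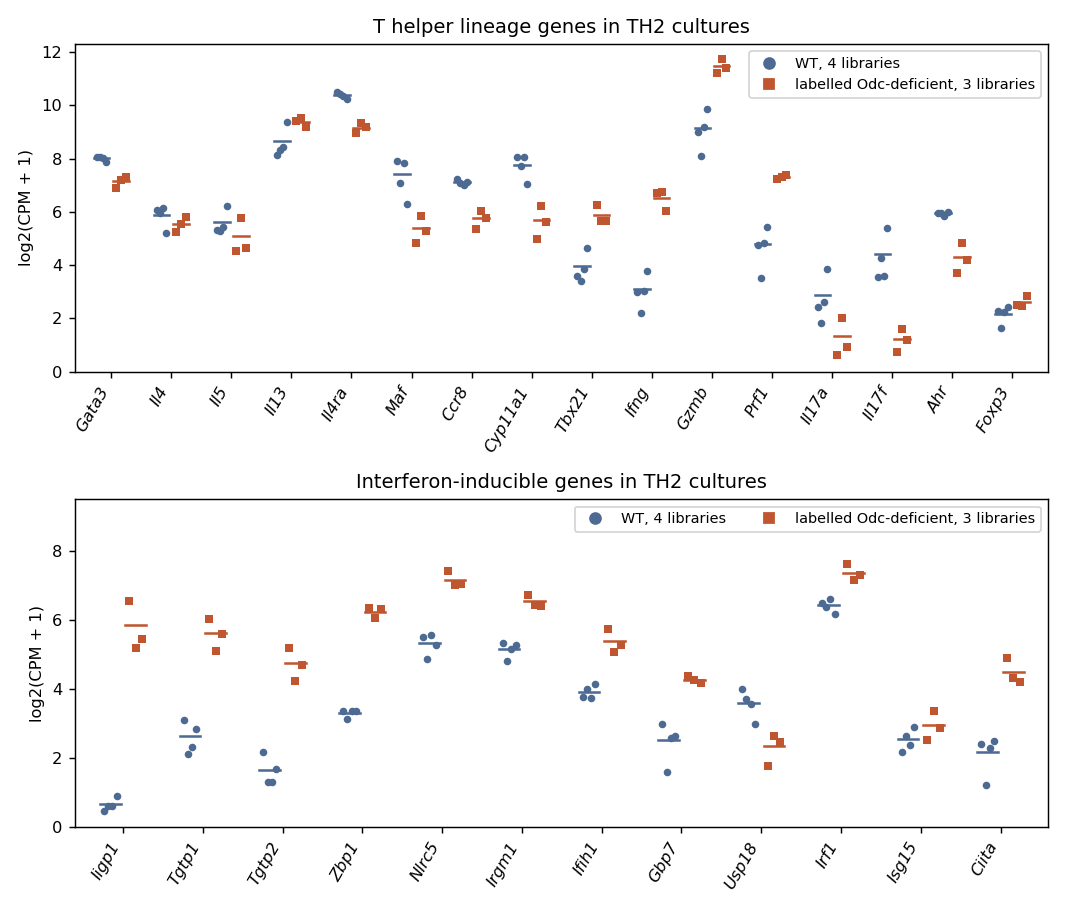
Levels, as log2(CPM + 1), of T helper lineage genes (top) and interferon-inducible genes (bottom) in each of the 4 WT (blue circles) and 3 labelled Odc-deficient (red squares) TH2 libraries, with a line at each group's mean. Tbx21, Ifng, Gzmb and Prf1 lie higher and Maf, Ccr8, Il17f and Ahr lower in the libraries labelled Odc-deficient, and Il4, Il5 and Il13 overlap.

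Several TH1 and cytotoxic genes rose in TH2 cultures labelled Odc-deficient. Tbx21, which encodes T-bet, the TH1 transcription factor, was at 11, 9.60, 13.6 and 24.2 CPM in WT and 74.9, 50.1 and 49.5 CPM in the other group (log2 fold change 2.00 ± 0.35 SE, adjusted p = 3.47e-05). Ifng, the TH1 cytokine, was at 6.86, 3.60, 7.08 and 12.7 CPM and 105, 106 and 65.0 CPM (log2 fold change 3.61 ± 0.52 SE, adjusted p = 4.82e-06). The groups were separate for both genes, and WT replicate 4 was the highest WT library for each. Eomes, a T-box factor of cytotoxic cells, averaged 1.17 ± 0.58 and 7.49 ± 3.92 CPM.

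In the TH1 list, 9 of 26 genes rose and 4 fell, with a median log2 fold change of 0.51. Those that fell included Il18r1, the IL-18 receptor of TH1 cells, from 8.77 ± 2.79 to 2.20 ± 0.217 CPM (log2 fold change -1.98 ± 0.33 SE, adjusted p = 1.86e-05). Its log2 fold changes in the other cultures were 0.16 in TH1, -0.02 in TH17 and 0.43 in Treg (difference -2.17 ± 0.35 SE, adjusted p = 9.17e-05). Ifng rose by 1.15 in TH1, 3.96 in TH17 and 3.63 in Treg on the log2 scale.

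Of 25 granzyme and cytotoxic genes, 12 rose and 1 fell, with a median of 0.99. Gzmb, the main apoptosis-inducing granzyme, was at 513, 274, 583 and 928 CPM in WT and 2411, 3447 and 2700 CPM in the other group (log2 fold change 2.31 ± 0.42 SE, adjusted p = 5.85e-05). Prf1, the pore-forming perforin, was at 25.8, 10.4, 27.8 and 41.8 CPM and 150.5, 158 and 164 CPM (log2 fold change 2.58 ± 0.44 SE, adjusted p = 2.92e-05). The 3 libraries labelled Odc-deficient agreed closely for Prf1, and WT replicate 2 was the lowest of all for both genes. Gzmc, Gzme and Gzmg, neighboring granzymes of similar sequence whose reads may be shared, had log2 fold changes of 3.04, 3.34 and 3.27 (largest adjusted p 7.17e-05). Killer cell lectin-like receptor genes numbered 10 higher and 0 lower of 22. These lists moved together with the summed CD8 and NK cell markers given above, and the part of such cells was not tested.

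Of 20 chemokine genes, 10 rose and 1 fell, with a median of 2.97. The summed B cell and dendritic cell markers, given above, were higher in the same libraries. The myeloid sum was also higher, but most of it was Cd74, which B cells make too. Basophil and mast cell genes numbered 11 higher and 2 lower of 18 there, with overlapping sums. The part of all these cells was not tested. Ccl22, a ligand of CCR4 made by dendritic cells, B cells and activated T cells, was at 66.0, 50.8, 80.2 and 143 CPM in WT and 1150, 589.9 and 632 CPM in libraries labelled Odc-deficient (log2 fold change 3.22 ± 0.47 SE, adjusted p = 5.71e-06). Ccl17, the other ligand of CCR4, averaged 1.57 ± 0.618 and 14.6 ± 3.70 CPM. Ccl3, a ligand of CCR1, was at 0.979, 0.934, 2.14 and 2.33 CPM and 112, 78.1 and 61.6 CPM (log2 fold change 5.72 ± 0.74 SE, adjusted p = 1.24e-06). Ccl4, its neighbor, rose by 3.13, Ccl9 by 3.51 and Ccl6 by 5.09 on the log2 scale (largest adjusted p 0.000178). The call of Ccl6 was lost against WT replicate 2 alone (adjusted p = 0.127). Ccl27a, a ligand of CCR10, was the 1 chemokine that fell, from 9.28 ± 2.27 to 2.75 ± 1.18 CPM.

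Chemokine receptors numbered 2 higher and 6 lower of 15, with a median of -0.83. Cxcr1 and Cxcr2, receptors for neutrophil-attracting chemokines, had the largest falls. Cxcr1 was at 29.5, 21.7, 30.6 and 8.89 CPM in WT and 0, 0.51 and 0.388 CPM in the other group (log2 fold change -6.16 ± 0.67 SE, adjusted p = 1.11e-07). Cxcr2 was at 58.4, 44.8, 55.9 and 23.3 CPM and 0.795, 4.71 and 0.904 CPM (log2 fold change -4.4 ± 0.58 SE, adjusted p = 1.35e-06). Cxcr4, a homing receptor for bone marrow, and Ccr7, for lymph nodes, had log2 fold changes of -1.43 and -1.12. Cxcr5, the receptor that guides cells into B cell follicles and is also carried by B cells, rose from 11 ± 3.37 to 41.0 ± 9.24 CPM. Elsewhere Cxcr1 changed by -2.86 in TH1, -2.26 in TH17 and 0.10 in Treg (difference -4.48 ± 0.86 SE, adjusted p = 0.000656) and Cxcr2 by -2.30 in TH1, -1.69 in TH17 and 2.74 in Treg (difference -3.98 ± 0.71 SE, adjusted p = 0.000363), the latter not past the test against WT replicate 2 alone (adjusted p = 0.0644). Both fell in TH1 and TH17 as in TH2, and their Treg values started from WT means of 0.365 and 0.191 CPM, within or below the level of 3 counts over the libraries (0.31 to 0.499 CPM).

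Several TH17 genes fell in TH2 cultures labelled Odc-deficient, with 2 higher and 11 lower of 23 and a median of -0.73. Ahr, the aryl hydrocarbon receptor, was at 61.1, 61.4, 56.4 and 63.0 CPM in WT and 12.1, 27.8 and 17.1 CPM in libraries labelled Odc-deficient (log2 fold change -1.67 ± 0.22 SE, adjusted p = 1.16e-06). Il17f, a TH17 cytokine, was at 10.8, 18.4, 11.1 and 40.8 CPM and 0.663, 2.04 and 1.29 CPM (log2 fold change -3.89 ± 0.61 SE, adjusted p = 1.04e-05). Neither gene overlapped between the groups, and WT replicate 4 was the highest for Il17f.

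Il17a, the defining TH17 cytokine, was at 4.41, 2.53, 5.08 and 13.4 CPM in WT and 0.53, 3.06 and 0.904 CPM in the other group (log2 fold change -2.04 ± 0.65 SE, adjusted p = 0.00881). Here the groups overlapped, and the call was lost without replicate 2 labelled Odc-deficient (-1.65, adjusted p = 0.054), without WT replicate 4 (-1.4, adjusted p = 0.0616) and against WT replicate 2 alone (-0.77, adjusted p = 0.637). Rora, a nuclear receptor of TH17 cells, Il21, a cytokine of follicular and TH17 cells, Il6ra, the IL-6 receptor, and Hif1a, the oxygen-sensing factor, had log2 fold changes of -1.5, -1.55, -2.27 and -1.09 (largest adjusted p 0.000541). That of Hif1a was -0.93 without replicate 2 labelled Odc-deficient and -0.99 without WT replicate 1, short of the fold threshold.

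Tmem176a and Tmem176b, neighboring genes of the TH17 list for membrane proteins, rose. Tmem176b was at 6.24, 4.4, 8.02 and 17.2 CPM in WT and 115, 68.4 and 67.0 CPM in the other group (log2 fold change 3.23 ± 0.31 SE, adjusted p = 1.51e-08), and Tmem176a rose by 3.01 on the log2 scale. Both rises were larger than in the other cultures, by 2.45 and 2.54 (largest adjusted p 4.19e-05). The falls of Il17f (difference -4.52 ± 0.70 SE, adjusted p = 7.91e-05), Ahr (difference -2.22 ± 0.25 SE, adjusted p = 1.16e-06) and Il17a (difference -2.98 ± 0.78 SE, adjusted p = 0.00948) also exceeded the mean change of the other cultures. In TH17, the culture with the highest Il17a level, it fell too, by 1.67 on the log2 scale (adjusted p = 0.000555), from 338.9 to 106.6 CPM on average. Its values of 1.498 in TH1 and 2.99 in Treg started from 0.874 and 0.258 CPM in WT. Il17f gave 1.92 in TH1, -0.955 in TH17 and 0.92 in Treg, from WT means of 0.621, 1453 and 2.70 CPM, and Ahr 0.34 in TH1, -0.51 in TH17 and 1.81 in Treg. Against WT replicate 2 alone the difference of Il17a did not pass (adjusted p = 0.356).

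Treg genes numbered 3 higher and 7 lower of 27, with a median of -0.66. Foxp3, the defining Treg factor, was at 3.79, 2.13, 3.74 and 4.37 CPM in WT and 4.64, 4.59 and 6.20 CPM in libraries labelled Odc-deficient (log2 fold change 0.55 ± 0.47 SE, adjusted p = 0.323), which is no call. Ctla4, an inhibitory receptor, was at 851, 836, 838 and 853 CPM and 132, 407 and 240 CPM (log2 fold change -1.70 ± 0.42 SE, adjusted p = 0.00126). Tnfrsf9, the costimulatory receptor 4-1BB, averaged 2098 ± 74.2 and 463 ± 178 CPM, and Tnfrsf18, the receptor GITR, 1016 ± 77.1 and 434 ± 87.9 CPM. Replicate 2 labelled Odc-deficient was the lowest library for all 3 genes, and the groups were separate. Against WT replicate 2 alone the calls of Ctla4 and Tnfrsf18 were lost (adjusted p = 0.0975 and 0.0538).

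Itgae, the integrin CD103, fell by 1.79 on the log2 scale in TH2, where the other cultures gave -0.47 in TH1, 1.79 in TH17 and 3.27 in Treg (difference -3.32 ± 0.51 SE, adjusted p = 6.25e-05). Il10ra, the IL-10 receptor, fell from 238 ± 12.1 to 66.6 ± 12.7 CPM. Prdm1, which encodes BLIMP1, a factor of effector T cells and plasma cells, rose from 9.51 ± 3.69 to 23.9 ± 5.03 CPM (log2 fold change 1.32 ± 0.28 SE, adjusted p = 0.000235).

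Genes of IL-2 and IL-4 signaling showed 3 higher and 6 lower of 31, with a median of -0.55. Il2ra, the high-affinity IL-2 receptor chain, Stat5a and Stat6, the transducers of IL-2 and IL-4, had log2 fold changes of -0.54, -0.55 and -0.54, each with an adjusted p of 0.005 or less and short of the fold threshold. Stat5b was at 468, 441, 419 and 409.8 CPM in WT and 179, 208 and 203 CPM in the other group (log2 fold change -1.14 ± 0.15 SE, adjusted p = 8.58e-07). Jak3, the kinase of the common gamma chain, and Pim2, a survival kinase induced by it, fell by 1.30 and 1.76 on the log2 scale. All 3 genes that fell here were separate between the groups.

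Feedback inhibitors and targets divided. Socs3, an inhibitor of IL-6 signaling that favors TH2 cells, was at 528, 559.8, 579 and 389.7 CPM in WT and 95.4, 149.5 and 103 CPM in the other group (log2 fold change -2.15 ± 0.29 SE, adjusted p = 1.56e-06). Socs2, a STAT5 target, averaged 82.3 ± 12.8 and 208 ± 16.1 CPM. Bcl6, the repressor that defines follicular helper T cells and germinal center B cells, was at 3.55, 3.07, 2.81 and 4.23 CPM and 16.7, 9.30 and 8.40 CPM (log2 fold change 1.75 ± 0.30 SE, adjusted p = 2.86e-05). Socs3 changed elsewhere by -0.90 in TH1, -0.00 in TH17 and -0.19 in Treg (difference -1.78 ± 0.31 SE, adjusted p = 0.000302) and Bcl6 by 0.60 in TH1, -1.5 in TH17 and -1.02 in Treg (difference 2.39 ± 0.34 SE, adjusted p = 2.13e-05). Il2, the T cell growth factor, rose by 2.77 on the log2 scale (adjusted p = 8.94e-05), a call lost against WT replicate 2 alone (adjusted p = 0.0584).

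Coinhibitory and exhaustion genes had no common direction, at 7 higher and 5 lower of 28 and a median of 0.12. Havcr2, which encodes TIM-3, was at 3.55, 2.40, 2.27 and 4.96 CPM in WT and 22.4, 29.2 and 23.8 CPM in the other group (log2 fold change 2.93 ± 0.42 SE, adjusted p = 3.78e-06). Vsir, which encodes VISTA, was at 269, 234, 250.2 and 148 CPM and 38.3, 45.2 and 37.6 CPM (log2 fold change -2.48 ± 0.35 SE, adjusted p = 3.11e-06). Pdcd1, which encodes PD-1, had a log2 fold change of 0.27 with overlapping groups. Lag3 and Tigit, receptors for class II molecules and for CD155, had values of -1.15 and -1.30. The call of Lag3 was lost without replicate 2 (-0.97, adjusted p = 0.1) or replicate 4 (-1.16, adjusted p = 0.0547) labelled Odc-deficient, and both calls were lost against WT replicate 2 alone (adjusted p = 0.23 and 0.0605).

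Naive and memory T cell genes numbered 4 higher and 10 lower of 28, with a median of -0.53. S1pr1, the receptor for exit from lymphoid organs, was at 130, 109, 113 and 152 CPM in WT and 26.8, 56.1 and 40.6 CPM in the other group (log2 fold change -1.61 ± 0.32 SE, adjusted p = 0.000138). Dapl1, a gene of naive and memory T cells, averaged 13 ± 6.75 and 1.81 ± 0.374 CPM, and Id3, an inhibitor of E proteins, 11.8 ± 2.08 and 5.15 ± 0.943 CPM. Cd69, which retains activated cells by opposing S1pr1, was at 42.5, 31.2, 40.9 and 34.1 CPM and 102, 89.1 and 93.9 CPM (log2 fold change 1.35 ± 0.15 SE, adjusted p = 1.11e-07). Itga4, the alpha 4 integrin chain, was at 6.86, 3.87, 6.42 and 4.67 CPM and 27.6, 28.7 and 22.1 CPM (log2 fold change 2.25 ± 0.33 SE, adjusted p = 3.74e-06). Tcf7, a factor of naive and memory T cells, overlapped between groups, with a log2 fold change of -0.17.

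The other cultures differed from TH2 for Itga4, Dapl1 and Id3. Itga4 gave 0.89 in TH1, -0.11 in TH17 and -1.75 in Treg (difference 2.57 ± 0.36 SE, adjusted p = 2.28e-05). Dapl1 gave -0.05 in TH1, 1.68 in TH17 and -1.23 in Treg (difference -2.96 ± 0.56 SE, adjusted p = 0.000514), from WT means of 1.09, 0.317 and 3.46 CPM. Id3 gave -0.10 in TH1, -0.50 in TH17 and 1.43 in Treg (difference -1.47 ± 0.21 SE, adjusted p = 2.75e-05).

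**Figure D4:**
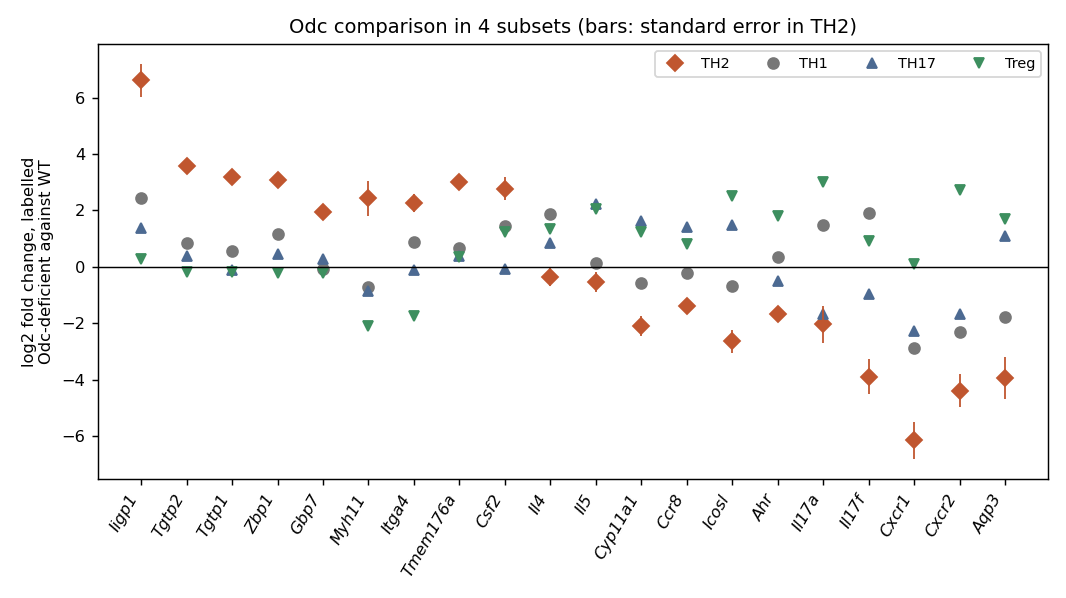
Log2 fold change of libraries labelled Odc-deficient against WT for 20 genes in TH2 (red diamonds, with bars of 1 standard error), TH1 (grey circles), TH17 (blue upward triangles) and Treg (green downward triangles) cultures. Iigp1, Tgtp1, Tgtp2, Zbp1, Gbp7 and Itga4 are most positive in TH2, while Il4, Il5, Cyp11a1, Ccr8, Icosl, Ahr, Il17f and Cxcr1 are most negative there.

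A group of interferon-inducible genes for GTPases, nucleic acid sensors and an MHC class I activator rose in TH2 libraries labelled Odc-deficient. These were Iigp1, Tgtp1, Tgtp2, Zbp1, Nlrc5, Irgm1, Gbp7 and Ifih1, and the rise of each exceeded that in the other cultures. Other guanylate-binding protein genes, such as Gbp2 (0.99) and Gbp4 (0.60), and the GTPase gene Igtp (-0.09) were not called. Such genes are induced by interferon-γ or by type I interferons. The cultures held an antibody against interferon-γ. Promoters were listed for Tgtp1, Tgtp2, Irgm1, Gbp7 and Ifih1 and not for Iigp1, Zbp1 or Nlrc5. Each of the promoters listed for these genes holds the letters GAAANNGAAA, the core repeat of the interferon-stimulated response element, on one strand or the other. That of Ifih1 is not printed. The sequences of the other 4 are shown, each with a match before the transcription start. They come from RefSeq (GRCm38.p6) and run 5′ to 3′ on the gene's strand, from 250 bases before to 50 after the transcription start. Capitals mark each match on either strand. The regions are chr11:48992197-48992496 (minus strand), chr11:49064163-49064462 (minus), chr11:48871371-48871670 (minus) and chr3:142530086-142530385 (plus).
Tgtp1: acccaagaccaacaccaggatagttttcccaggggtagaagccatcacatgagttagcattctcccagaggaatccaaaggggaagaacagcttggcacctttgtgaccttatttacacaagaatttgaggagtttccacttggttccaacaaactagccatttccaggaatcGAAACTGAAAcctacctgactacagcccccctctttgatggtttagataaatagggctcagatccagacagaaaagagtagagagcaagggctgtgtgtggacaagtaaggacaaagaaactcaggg
Tgtp2: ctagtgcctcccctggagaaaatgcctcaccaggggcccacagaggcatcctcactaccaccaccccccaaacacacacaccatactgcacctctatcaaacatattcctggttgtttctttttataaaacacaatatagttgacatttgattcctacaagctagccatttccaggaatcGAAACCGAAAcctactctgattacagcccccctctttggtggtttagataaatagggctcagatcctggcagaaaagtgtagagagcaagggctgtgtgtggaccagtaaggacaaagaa
Irgm1: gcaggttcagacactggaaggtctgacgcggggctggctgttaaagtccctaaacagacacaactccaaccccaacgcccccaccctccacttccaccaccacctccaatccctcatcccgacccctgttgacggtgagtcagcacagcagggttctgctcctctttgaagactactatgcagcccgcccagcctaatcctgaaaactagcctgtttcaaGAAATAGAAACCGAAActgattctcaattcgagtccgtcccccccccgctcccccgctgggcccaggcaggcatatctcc
Gbp7: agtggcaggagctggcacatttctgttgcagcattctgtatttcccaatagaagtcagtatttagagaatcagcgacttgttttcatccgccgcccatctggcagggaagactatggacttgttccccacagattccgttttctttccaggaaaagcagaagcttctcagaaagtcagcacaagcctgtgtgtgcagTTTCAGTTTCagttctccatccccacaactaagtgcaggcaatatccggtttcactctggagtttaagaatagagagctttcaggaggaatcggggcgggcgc

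The matches lie 77 bases (Tgtp1), 70 bases (Tgtp2) and 53 bases (Gbp7) before the transcription start, and Irgm1 holds 2 overlapping matches at 30 and 24 bases before it. The promoter of Ifih1 (chr2:62646206-62646505, minus strand) holds 1 match 32 bases after the start. Counted on both strands, GAAANNGAAA was in 1131 of 32851 mouse promoters of this length (3.44%) and in 392 of the 10137 tested genes with a promoter listed (3.87%). In the interferon response list it was in 17 of 33 such genes (51.5%). The list does not hold Tgtp1, Tgtp2 or Zbp1. Of its 10 members that rose, 5 had a promoter listed and 4 held it, and of the 10 whose change was more positive in TH2 than elsewhere, 8 had one listed and 7 held it. Of the 6 genes with the largest differences in the positive direction 3 had one listed and 2 held it, Tgtp1 and Tgtp2. A match is a description of the letters and not a bound site.

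Iigp1 (chr18:60376027-60392634, GRCm38), an immunity-related GTPase, was at 0.367, 0.533, 0.535 and 0.875 CPM in WT and 92.1, 35.7 and 43.0 CPM in libraries labelled Odc-deficient (log2 fold change 6.61 ± 0.59 SE, adjusted p = 6.57e-09). It had the largest rise of all called genes of at least 10 CPM on average. Zbp1, a sensor of nucleic acids that can trigger cell death, was at 9.30, 7.74, 9.36 and 9.33 CPM and 80.8, 65.1 and 78.0 CPM (log2 fold change 3.06 ± 0.20 SE, adjusted p = 4.43e-11). Tgtp1, an interferon-inducible GTPase, was at 7.59, 3.33, 4.01 and 6.12 CPM and 63.9, 33.6 and 47.0 CPM (log2 fold change 3.19 ± 0.24 SE, adjusted p = 3.79e-10). The groups were far apart for all 3 genes, and replicate 2 labelled Odc-deficient was the highest.

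Tgtp2, the neighbor and near copy of Tgtp1, rose by 3.57 on the log2 scale, and reads of the 2 genes may be split between them. Nlrc5, the activator of MHC class I genes, was at 44.7, 28.0, 46.0 and 37.8 CPM in WT and 169.6, 129 and 132 CPM in the other group (log2 fold change 1.87 ± 0.14 SE, adjusted p = 1.56e-10). Irgm1, a regulator of the GTPases, was at 39.0, 27.2, 34.5 and 37.9 CPM and 106, 86.0 and 84.0 CPM (log2 fold change 1.41 ± 0.14 SE, adjusted p = 1.15e-08). Gbp7, a guanylate-binding protein, and Ifih1, the RNA sensor MDA5, averaged 4.76 ± 2.02 and 14.1 ± 2.13 CPM in WT against 18.2 ± 1.35 and 40.9 ± 10.7 CPM.

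Elsewhere these genes changed less. All but Ifih1 had a higher mean level in WT of each other subset than in TH2 WT, a description with no test. Mean WT levels of Iigp1 were 0.578 CPM in TH2, 12.63 in TH1, 6.34 in TH17 and 68.9 in Treg, beside 56.9 CPM in TH2 libraries labelled Odc-deficient. Those of Tgtp2 were 2.17 CPM in TH2, 13.7 in TH1, 16.6 in TH17 and 23.7 in Treg, beside 26.1 CPM. Ifih1 was at 14.1 CPM in TH2, 8.17 in TH1, 5.46 in TH17 and 9.11 in Treg WT. Iigp1 gave 2.44 in TH1, 1.36 in TH17 and 0.27 in Treg (difference 5.25 ± 0.66 SE, adjusted p = 6.52e-06), Zbp1 1.18 in TH1, 0.45 in TH17 and -0.22 in Treg (difference 2.59 ± 0.22 SE, adjusted p = 1.4e-08), and Tgtp1 0.55 in TH1, -0.13 in TH17 and -0.20 in Treg (difference 3.11 ± 0.27 SE, adjusted p = 1.4e-08). The differences of Tgtp2, Nlrc5, Irgm1, Gbp7 and Ifih1 were 3.22, 1.57, 1.28, 1.93 and 1.24 (largest adjusted p 0.00429). That of Ifih1 had an adjusted p of 0.155 against WT replicate 2 alone.

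The response was uneven across the list. Of 45 interferon response genes tested, 10 rose (22.2%) and 1 fell, with a median of 0.50, and CPM did not overlap for 21 higher (beside 30.6% of all genes tested) and 7 lower. Isg15, a ubiquitin-like type I interferon target, had a log2 fold change of 0.50 (adjusted p = 0.28) and overlapped. Irf1, the interferon-γ regulated factor, had 0.96 (adjusted p = 6.48e-06), short of the fold threshold. Usp18, which removes ISG15 from proteins and dampens type I interferon signals, was the member that fell, from 11.2 ± 3.35 to 4.04 ± 1.48 CPM (log2 fold change -1.46 ± 0.29 SE, adjusted p = 0.000129), by more than elsewhere (difference -1.39 ± 0.34 SE, adjusted p = 0.00522; adjusted p = 0.0966 against WT replicate 2 alone). Ciita, the activator of MHC class II genes, rose by 2.61, beside 3.42 in TH1, 2.13 in TH17 and 3.47 in Treg, and H2-Aa, a class II chain abundant in B cells, by 2.83. Both moved with the B cell markers given above, and the part of B cells that remained after the negative selection was not tested.

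Several polyamine synthesis genes rose, while the spermine oxidase Smox and the acetyltransferase Sat1 fell. Of 18 genes of synthesis and antizymes, 7 rose and 2 fell, with a median of 0.89. Srm (spermidine synthase, chr4:148591503-148594993, GRCm38) was at 42.1, 53.6, 56.3 and 86.2 CPM in WT and 341, 238 and 278 CPM in libraries labelled Odc-deficient (log2 fold change 2.26 ± 0.45 SE, adjusted p = 0.000142). Amd1, the decarboxylase that supplies the aminopropyl group, was at 31, 25.7, 25.8 and 37.3 CPM and 107, 86.9 and 107 CPM (log2 fold change 1.74 ± 0.24 SE, adjusted p = 1.81e-06), and it has a near copy with which reads may be shared. Mat2a, which makes S-adenosylmethionine, was at 108, 81.8, 90.2 and 121 CPM and 418, 258 and 336 CPM (log2 fold change 1.75 ± 0.27 SE, adjusted p = 8.47e-06).

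No library labelled Odc-deficient overlapped WT for these 3 genes. Sms, spermine synthase, averaged 59.8 ± 14.6 and 114 ± 15.2 CPM, with a log2 fold change of 0.94 just under the threshold. Mtap and Enoph1, enzymes of the methionine salvage that recycles the by-product of spermidine synthesis, had values of 1.07 and 1.25. That of Mtap was 0.98 without WT replicate 2. Azin2, an antizyme inhibitor, and Oaz2, an antizyme that directs ODC to the proteasome, fell by 1.54 and 1.62 on the log2 scale (largest adjusted p 1.3e-06).

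Of 13 genes of polyamine breakdown and transport, 3 rose and 4 fell, with a median of 0.50. The other oxidase genes tested, Paox and Aoc2, had log2 fold changes of 0.60 and 0.998, neither a call. Smox, spermine oxidase, was at 271, 298, 276 and 291 CPM in WT and 23.6, 83.5 and 53.4 CPM in the other group (log2 fold change -2.41 ± 0.46 SE, adjusted p = 0.0001). Sat1, the acetyltransferase that starts polyamine export and breakdown, was at 122, 126, 134 and 111 CPM and 41.1, 58.0 and 45.9 CPM (log2 fold change -1.35 ± 0.16 SE, adjusted p = 2.25e-07). Slc7a1, the arginine carrier, was at 109, 95.8, 82.1 and 117 CPM and 242, 200.4 and 239 CPM (log2 fold change 1.17 ± 0.20 SE, adjusted p = 3.18e-05). Gpc1, a glypican, and Cav1, caveolin, rose by 1.002 and 3.32, the latter from levels of no more than 1.06 CPM in any library, and Slc7a2 and Slc12a8, carriers, fell by 1.36 and 1.85. Gpc1, Cav1 and Slc7a2 were no longer called against WT replicate 2 alone, where their log2 fold changes were 0.922, 4.91 and -0.924. Gpc1 lay on the 2-fold line and was under it without replicate 3 labelled Odc-deficient or any one of WT replicates 1, 2 and 3 (0.862 to 0.996), and Cav1 was lost without replicate 2 labelled Odc-deficient or any one of WT replicates 1, 2 and 4 (adjusted p = 0.0524 to 0.27). In the other cultures Srm changed by 2.34 in TH1, 1.5 in TH17 and 2.78 in Treg, and Smox by -1.49 in TH1, -2.35 in TH17 and -2.36 in Treg.

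Of 6 hypusine pathway genes, 2 rose and 0 fell, with a median of 0.85. Dohh was at 27.8, 37.9, 31.7 and 44.2 CPM in WT and 81.0, 78.4 and 79.6 CPM in libraries labelled Odc-deficient (log2 fold change 1.17 ± 0.20 SE, adjusted p = 2.19e-05). Dhps and Eif5a, which encodes the hypusinated protein, each had a log2 fold change of 0.85, with adjusted p values of 9.64e-06 and 0.000191 and no overlap, but did not reach the fold threshold. Eif5a2, the less abundant form of eIF5A, rose by 1.13, a value of 0.98 without replicate 2 labelled Odc-deficient.

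**Figure D5:**
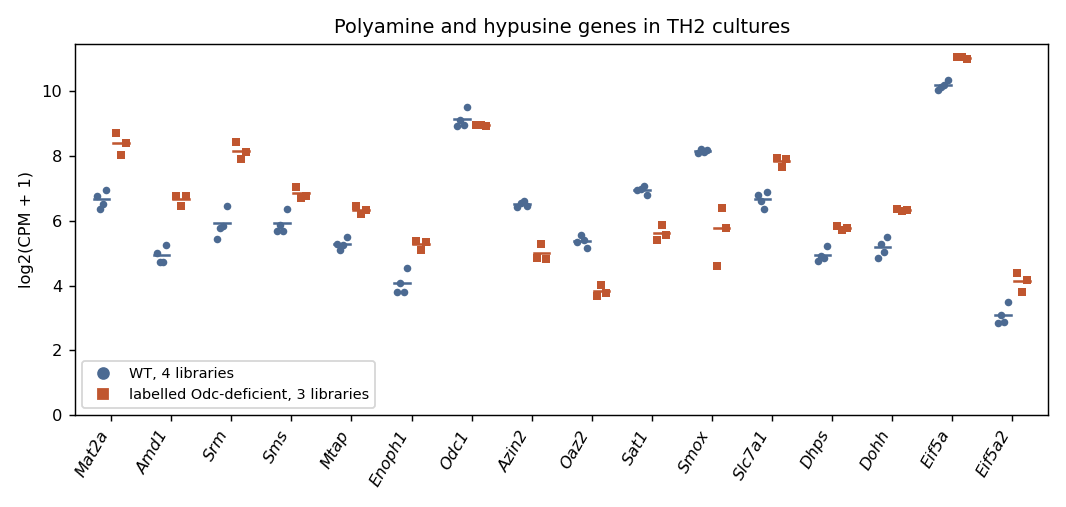
Levels, as log2(CPM + 1), of polyamine and hypusine genes in each of the 4 WT (blue circles) and 3 labelled Odc-deficient (red squares) TH2 libraries, with a line at each group's mean. Srm, Amd1, Mat2a and Dohh lie higher and Smox, Sat1, Oaz2 and Azin2 lower in the libraries labelled Odc-deficient, and Odc1 overlaps.

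Some mitochondrial and proteasomal genes rose and some glycolytic genes fell. Of 27 glycolysis genes, 0 rose and 6 fell, with a median of -0.59. Slc2a3, a glucose transporter, was at 1982, 1670, 1853 and 1374 CPM in WT and 147, 394 and 239.6 CPM in the other group (log2 fold change -2.72 ± 0.88 SE, adjusted p = 0.0104). That call was lost without replicate 2 labelled Odc-deficient (-2.44, adjusted p = 0.0538) and against WT replicate 2 alone (adjusted p = 0.17). Aldoc (an aldolase), Pfkm (a phosphofructokinase), Pdk1 (an inhibitory kinase of pyruvate dehydrogenase) and Eno2 (an enolase) had log2 fold changes of -3.02, -1.79, -1.60 and -2.44 (largest adjusted p 0.00294). The calls of Aldoc and Pdk1 were lost against WT replicate 2 alone. The principal glucose transporter Slc2a1, the lactate dehydrogenase Ldha and the hexokinase Hk2 had values of -0.31, -0.01 and 0.46, none a call, and that of Ldha changed sign with the library left out.

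Of 13 mRNAs encoded in mitochondrial DNA, 8 could be tested, of which 5 rose and 0 fell, with a median of 1.10. The other 5 (mt-Co2, mt-Co3, mt-Atp6, mt-Atp8 and mt-Nd4l) had at most 4 counts in any library while mt-Co1 stood at 6128 CPM or more, so the deposited counts do not measure them. mt-Cytb, of respiratory complex III, was at 910.2, 809, 837 and 946 CPM in WT and 3121, 2351 and 2020 CPM in the other group (log2 fold change 1.51 ± 0.19 SE, adjusted p = 7.57e-07), and mt-Nd1, of complex I, rose by 1.24. mt-Co1, of complex IV, was at 10740, 9540, 10190 and 8140 CPM and 8667, 7681 and 6128 CPM (log2 fold change -0.37 ± 0.17 SE, adjusted p = 0.0605), which is no call. Nuclear genes for mitochondrial ribosomal proteins numbered 11 higher (14.3%, beside 11.5% of all genes tested) and 0 lower of 77, with a median of 0.59, and CPM lay wholly above WT for 55 of them. Mrpl20 and Mrpl12 had the largest values named here, 1.65 and 1.52. Cytosolic ribosomal protein genes numbered 2 higher and 0 lower of 81, with a median of -0.16.

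Of 37 proteasome subunit genes, 10 rose and 0 fell, with a median of 0.75, and 34 had CPM wholly above WT. Psmc5, an ATPase of the regulatory particle, was at 59.4, 62.4, 56.9 and 96.1 CPM in WT and 211, 191 and 199.5 CPM in the other group (log2 fold change 1.55 ± 0.27 SE, adjusted p = 2.92e-05). Psmd1, its scaffold, rose by 1.37. WT replicate 4 was the highest WT library for both.

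TCA cycle and acetyl-CoA genes numbered 4 higher and 4 lower of 40. Idh3a, a subunit of isocitrate dehydrogenase, rose by 1.09 on the log2 scale, whereas citrate synthase Cs (0.42) and ATP citrate lyase Acly (-0.27) were not called. Genes of histone acetylation, which uses acetyl-CoA, numbered 0 higher and 5 lower of 36, with a median of 0. Kat6b, an acetyltransferase, was at 149, 131, 127 and 86.4 CPM in WT and 22.9, 33.4 and 27.5 CPM in the other group (log2 fold change -2.14 ± 0.28 SE, adjusted p = 1.05e-06). The deacetylases Hdac5, Hdac7 and Sirt6 had log2 fold changes of -1.47, -1.47 and -1.45 (largest adjusted p 7.66e-05), while the acetyltransferases Ep300 (-0.31) and Kat2a (0.69) were not called.

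Of 49 genes of the integrated stress response and amino acid synthesis, 11 rose and 3 fell, with a median of 0.52. Shmt1, a serine hydroxymethyltransferase, was at 25.6, 26.1, 28.3 and 37.3 CPM in WT and 159, 101 and 133 CPM in libraries labelled Odc-deficient (log2 fold change 2.16 ± 0.41 SE, adjusted p = 7.91e-05). Slc7a5, a carrier of large amino acids, Phgdh, the first enzyme of serine synthesis, Wars, a tryptophan tRNA synthetase, and Slc7a11, a cystine carrier, rose by 1.4, 1.39, 1.61 and 2.64 (largest adjusted p 0.000932). Atf4, the central factor of the response, had a log2 fold change of 0.63, Ddit3, a death-promoting target, -0.80, and Asns, an asparagine synthetase, 0.85, none a call. Without WT replicate 4, whose Asns level of 109 CPM was well above the other WT libraries, Asns was called (1.11, adjusted p = 0.00891), as it was without replicate 2 labelled Odc-deficient (1.04, adjusted p = 0.0223). The endoplasmic reticulum list had 2 higher and 2 lower of 31, with the chaperone Hspa5 at 0.46 and the factor Xbp1 at -0.68.

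Sterol and fatty acid synthesis genes numbered 3 higher and 1 lower of 40, with a median of 0. Acaca, acetyl-CoA carboxylase, and Idi1, an isomerase of sterol synthesis, rose by 1.15 and 1.18. Fasn, fatty acid synthase, had a log2 fold change of 0.96 and was not called.

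Cell cycle genes numbered 12 higher and 3 lower of 61, with a median of 0.24. Mki67 and Ccnb1, markers of cycling and of mitosis, overlapped between groups, with log2 fold changes of -0.06 and 0.23. Ccne1, the cyclin of S phase entry, was at 21.7, 21.6, 21.1 and 30.9 CPM in WT and 90.5, 69.4 and 80.2 CPM in the other group (log2 fold change 1.75 ± 0.27 SE, adjusted p = 9.12e-06). Tyms, thymidylate synthase, and Mcm2, a replicative helicase subunit, rose by 1.78 and 1.21. The inhibitor Cdkn1b (p27) was at 239.8, 213, 214 and 139 CPM and 41.9, 59.9 and 57.4 CPM (log2 fold change -1.93 ± 0.28 SE, adjusted p = 4.32e-06), and Ccng2, a cyclin of quiescent cells, fell by 2.09. Cdkn2a, which encodes p16 and ARF, rose from 0.416 ± 0.361 to 4.61 ± 2.44 CPM.

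p53 targets numbered 1 higher and 4 lower of 28, with a median of -0.03. Cdkn1a, which encodes p21, had a log2 fold change of -0.67 and Mdm2, the p53 ligase, -0.14, neither a call. Trp53inp1, a stress-induced target, fell from 199 ± 62.7 to 42.1 ± 1.90 CPM.

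The genes with the largest changes were taken by rule, from called genes with a mean of at least 10 CPM over the 7 libraries and no overlap. The 10 largest rises were Iigp1, Ccl3, Slpi, Serpina3g, Ms4a1, Igkc, Ifng, Tgtp2, Htr7 and Cd40. Slpi, a secreted protease inhibitor, was at 2.33, 0.533, 2.94 and 2.19 CPM in WT and 84.8, 30.3 and 48.6 CPM in the other group (log2 fold change 4.76 ± 0.44 SE, adjusted p = 5.69e-09). Serpina3g, an inhibitor of cathepsins in T cells, was at 3.18, 0.8, 2.41 and 4.96 CPM and 92.5, 54.5 and 48.5 CPM (log2 fold change 4.53 ± 0.58 SE, adjusted p = 9.57e-07). Htr7, a serotonin receptor, was at 3.18, 0.8, 3.21 and 5.54 CPM and 40.1, 34.3 and 34.5 CPM (log2 fold change 3.51 ± 0.43 SE, adjusted p = 4.55e-07), and Cd40, the costimulatory receptor of B cells and dendritic cells, rose by 3.51. Ms4a1, which encodes CD20, and Igkc belong to the B cell markers given above.

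The 10 largest falls were led by Xist, described above, and held Stfa2, Dysf, Cxcr1, Myh7b, Gipr, Gm5483, Dntt, Ldhd and Tgm1. Stfa2, a stefin that inhibits cathepsins, was at 66.8, 68.4, 52.8 and 29.0 CPM in WT and 0.133, 1.53 and 0.258 CPM in the other group (log2 fold change -6.36 ± 0.57 SE, adjusted p = 1.14e-08). Dysf, the membrane repair protein dysferlin, was at 26.3, 26.4, 26.3 and 13 CPM and 0.133, 0.637 and 0.129 CPM (log2 fold change -6.18 ± 0.78 SE, adjusted p = 7.5e-07). Gipr, the receptor for the gut hormone GIP, was at 490.4, 475, 541 and 237 CPM and 4.24, 24.7 and 8.53 CPM (log2 fold change -5.12 ± 1.31 SE, adjusted p = 0.00184). WT replicate 4 was the lowest WT library for all 3 genes, and still far above the libraries labelled Odc-deficient. Myh7b, a myosin heavy chain, Dntt, the terminal transferase of immature lymphocytes, Ldhd, a D-lactate dehydrogenase, and Tgm1, a transglutaminase, had log2 fold changes of -5.54, -4.58, -4.56 and -4.54 (largest adjusted p 0.000443). Gm5483, a stefin-like gene near Stfa2, fell by 4.76, with reads that may be shared.

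Gene families held further large changes. Of 14 serpin genes, 7 rose and 3 fell. Serpina3f, a neighbor of Serpina3g, was detected in 1 of 4 WT libraries (0.146 CPM) and at 18.4, 5.99 and 5.43 CPM in the other group. Of 24 integrin genes, 3 rose and 6 fell. Itga9, an integrin of tenascin and VCAM-1, was at most 0.291 CPM in WT and at 18.9, 7.26 and 10.1 CPM in the other group. Itga7, a laminin receptor of muscle, was at 677, 651, 657 and 346 CPM and 7.69, 44.2 and 25.1 CPM (log2 fold change -4.50 ± 1.07 SE, adjusted p = 0.00101). Of 15 semaphorin genes, 4 rose and 6 fell, with Sema4f, a membrane semaphorin, at 727, 819.8, 688 and 653 CPM and 44.5, 105 and 67.3 CPM (log2 fold change -3.32 ± 0.40 SE, adjusted p = 5.08e-07).

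Several of these changes differed from those elsewhere. Among genes with a mean of at least 10 CPM over all 31 libraries, the largest differences in the negative direction, beside Il17f, Cxcr1 and Cxcr2, were in Aqp3, a water and glycerol channel (-1.79 in TH1, 1.10 in TH17 and 1.69 in Treg; difference -4.29 ± 0.79 SE, adjusted p = 0.000467), Lhx6, a homeobox factor (-1.26 in TH1, 4.06 in TH17 and 4.4 in Treg; difference -4.19 ± 0.80 SE, adjusted p = 0.00068), and Gm5483 (difference -3.92 ± 0.88 SE, adjusted p = 0.00295), whose WT means were 29.5 CPM in TH1, 4.46 in TH17 and 0.494 in Treg. Stfa2, below that level, differed by -6.50 (adjusted p = 0.00244, and 0.0513 against WT replicate 2 alone), with a mean of at most 0.955 CPM in WT of each other subset. In the positive direction, beside Iigp1, Tgtp1, Tgtp2, Zbp1 and Itga4, Myh11, the smooth muscle myosin, gave -0.73 in TH1, -0.85 in TH17 and -2.11 in Treg (difference 3.65 ± 0.74 SE, adjusted p = 0.00126). Lhx6, at 3.31, 1.60, 4.41 and 2.77 CPM in WT and 0.265, 0.637 and 1.68 CPM in the other group, overlapped, and its call in TH2 (log2 fold change -1.79, adjusted p = 0.0437) was lost without any one of 5 libraries (replicates 2 and 3 labelled Odc-deficient and WT replicates 1, 3 and 4), with adjusted p values of 0.0539 to 0.164, and against WT replicate 2 alone (adjusted p = 0.656). Serpina3f, Itga9 and Sema4f differed by 5.01, 3.99 and -1.75, with WT means of Itga9 of 0.868 CPM in TH1, 0.46 in TH17 and 0.138 in Treg. Against WT replicate 2 alone the differences of Aqp3, Lhx6, Gm5483, Serpina3f, Itga9 and Sema4f did not pass (adjusted p = 0.0793, 0.324, 0.16, 0.245, 0.344 and 0.0929).

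TH2 cultures of the Dohh table come from separate mice and separate WT libraries, 3 of each, and their mutant mice were to lack Dohh in T cells. The RNA of Dohh was itself higher in the libraries labelled Dohh-deficient, at a mean of 84.1 CPM beside 39.2 CPM in WT (log2 fold change 1.10, adjusted p = 0.00167). As for Odc1, only some exons of Dohh lie between the loxP sites while counts cover all exons, so this value checks the genotype only in part and these libraries too are named by their label. Dohh RNA was also higher in the Odc comparison, with a log2 fold change of 1.17. In the TH2 Dohh comparison 3595 of 13897 genes were called (25.9%). The values below set the 2 comparisons side by side and were not tested against each other. Tbx21 and Ifng had log2 fold changes of 3.02 and 7.99 in libraries labelled Dohh-deficient, beside 2.00 and 3.61 in the Odc comparison, and Gzmb 5.10 beside 2.31. Il4 had -0.39 beside -0.35. Il5 and Il13, which were not called in the Odc comparison, rose by 3.64 and 2.86 (largest adjusted p 4.43e-07).

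The interferon-inducible genes Iigp1, Tgtp2, Zbp1, Nlrc5, Irgm1 and Gbp7 had 7.12, 4.13, 1.94, 1.58, 1.73 and 2.82 in libraries labelled Dohh-deficient, all called, while Ifih1 had -0.45 and was not called. Il17f and Il17a rose by 1.61 and 3.97, against falls in the Odc comparison, whereas Ahr fell by 2.37. Cyp11a1, Icosl and Il9r had 0.64, -0.06 and -0.01 and were not called. Bcl6 fell by 1.51 and Itga4 rose by 2.50.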

How the data were processed

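RNA-seq counts of 31 libraries in 8 groups (TH1, TH2, TH17 and Treg, each WT or labelled Odc-deficient) were used, and 24 libraries of the Dohh table served for WT signatures and side-by-side values. The kit selects mRNA and keeps strand. The deposited tables hold whole-number counts per gene identifier that the authors obtained from reads; the submitters' processing notes name STAR, featureCounts, deepTools, DESeq2 and mm10, and the strand setting and annotation release are not given in the sources used here. Of 47937 identifiers, 47224 matched a GENCODE vM21 symbol, and those without one held 0.0709% of counts.

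Counts were tested with edgeR 4.0.16 in R 4.3.3 (TMM, filterByExpr with its minimum count of 10, robust quasi-likelihood fit, Benjamini-Hochberg adjustment over 13839 genes). All 31 libraries shared 1 estimate of spread. CPM used TMM-scaled library sizes, and fold changes come from the fit. Alternatives were RLE size factors, DESeq2 1.42.0, other filters and thresholds, leaving out each TH2 library, a replicate block, a genotype-by-replicate block, and, added after the data were seen, that block for single named genes, the Y-linked level as a covariate and the libraries with Y-linked and without Xist transcripts. The members, gene lists and tests were chosen with earlier results of these data known. Genes named are the defining genes of each list, called or not, the largest called members of lists and families, the 10 largest rises and falls (mean of at least 10 CPM over the 7 libraries, groups not overlapping), and the 6 largest differences from the other subsets in each direction (mean of at least 10 CPM over 31 libraries). Some of these genes are not reported here. List members whose call changed with the setting were in part left unnamed after their values were seen. The fitting scripts were tested on simulated data. TH2 replicates differed by more than sampling noise (chi-square of 4.46 to 17.7 per gene over 9 pairs), so none was counted as a duplicate. Columns of no sample numbered 0.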

Additional observations from a re-analysis of the deposited data

Results flagged for a closer look

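Among the 183 named genes, 16 had a WT library farther from the others than Dixon's test allows in a group of 4, and chance alone puts about 1 in 20 groups there. WT replicate 4 was that library for 13 of them. It stood high for Il5 (74.3 CPM), Cs (376 CPM), Asns (109 CPM), Phgdh (214 CPM), Wars (60.8 CPM), Ccne1 (30.9 CPM), Psmc5 (96.1 CPM), Psmd1 (112 CPM), Ms4a1 (2.92 CPM) and Serpina3f (0.146 CPM), and low for Jak3 (718 CPM), Dysf (13 CPM) and Itga7 (346 CPM). In each of these it lay on the side of the libraries labelled Odc-deficient, apart from Il5. WT replicate 2 stood apart for Ccl27a (12.7 CPM), Cxcr5 (6.00 CPM) and Zbp1 (7.74 CPM).

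For 54 of the 183 named genes, the Odc change in TH2 cultures differed by more than 2-fold, with an adjusted p below 0.05, from the mean change in TH1, TH17 and Treg cultures. TH2 was the more negative for Il4 (-1.70), Il5 (-2.00), Ccr8 (-2.05), Icosl (-3.74), Il9r (-3.21), Cyp11a1 (-2.85), Il18r1 (-2.17), Il17f (-4.52), Il17a (-2.98), Ahr (-2.22), Itgae (-3.32), Socs3 (-1.78), Cxcr1 (-4.48), Cxcr2 (-3.98), Dapl1 (-2.96), Usp18 (-1.39), Azin2 (-1.28), Maf (-1.21), Plcd1 (-1.11), Il6ra (-1.06), Il10ra (-1.01), Vsir (-1.09), Id3 (-1.47), Eno2 (-1.33), Trp53inp1 (-1.15), Stfa2 (-6.50), Ldhd (-2.61), Tgm1 (-2.17), Trdc (-1.46), Cd8a (-2.95), Gm5483 (-3.92), Aqp3 (-4.29), Lhx6 (-4.19) and Sema4f (-1.75), on the log2 scale. TH2 was the more positive for Csf2 (1.90), Tmem176a (2.54), Tmem176b (2.45), Bcl6 (2.39), Ccl3 (2.38), Ccl9 (1.65), Idi1 (1.4), Slpi (3.74), Itga4 (2.57), Iigp1 (5.25), Tgtp1 (3.11), Tgtp2 (3.22), Zbp1 (2.59), Nlrc5 (1.57), Irgm1 (1.28), Ifih1 (1.24), Gbp7 (1.93), Serpina3f (5.01), Myh11 (3.65) and Itga9 (3.99). The WT means of Slpi in the other cultures were 0.604 to 0.781 CPM. These genes were picked from lists and as extremes, so their number says nothing of how common such differences are. Without replicate 2 labelled Odc-deficient 12 of them were lost, the calls of Il4, Il5 and Csf2 given above and those of Maf (-0.986), Plcd1 (-0.927), Ccl3 (2.12), Il10ra (-0.89), Vsir (-1.05), Eno2 (-1.37), Trp53inp1 (-1.18), Tgm1 (-1.87) and Cd8a (-2.98). Without any one of the other TH2 libraries 3 to 8 were lost, among them Ccl9 (1.10 without replicate 3 labelled Odc-deficient). The differences of Azin2, Maf, Plcd1, Ccl3, Il6ra, Il10ra, Vsir, Ccl9, Eno2, Trp53inp1, Tgm1, Trdc and Cd8a did not pass against WT replicate 2 alone either, beside those given above (adjusted p = 0.061, 0.39, 0.216, 0.507, 0.155, 0.173, 0.289, 0.228, 0.141, 0.337, 0.212, 0.0877 and 0.304).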

How the results depend on the processing

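The 3478 calls in TH2 were 3462 to 3475 with DESeq2 or RLE size factors, 3127 with the 7 TH2 libraries alone and 3049 to 3716 when 1 library was left out. They were 1956 with a mean count of at least 50, 1319 when tested against the 2-fold change itself, and 8193 by adjusted p alone. The 854 differences from the other subsets were 512, 149 and 2435 in the same order, 529 at an adjusted p below 0.01, 583 to 958 with 1 library left out, and 279 against WT replicate 2 alone of the WT libraries. The cause was not tested. With the Y-linked level as a covariate, 3749 genes and 854 differences were called. Signatures of up to 50 genes gave 6.67% of TH1 genes lower, and 15.9% higher and 2.27% lower of Treg genes. With the replicate block the counts were 3308, 939 and, for Dohh, 3628. Of the TH2 changes of 183 named genes, 180 stayed the same with that block and 3 were weaker. Same-numbered TH2 libraries of the 2 genotypes did not deviate together (r of -0.086 to 0.108 over 3 pairs), so the numbers were not taken as pairs within TH2. Across subsets, TH2 libraries deviated together with same-numbered libraries of the same genotype (r of 0.206 to 0.515 over 12 WT pairs and 0.034 to 0.437 over 9 pairs labelled Odc-deficient, so not above 0.1 in every pair), and a genotype-by-replicate block gave 1060 differences in place of 854. With this block the differences of Plcd1 (-0.981), Il6ra (-0.948), Il10ra (-0.891) and Vsir (-0.88) were no longer called, each for its size, and with the replicate block Il6ra (-0.987), Il10ra (-0.966), Vsir (-0.952) and Ccl3 (2.19, adjusted p = 0.0545) were not.

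Of 2732 values of named genes under alternatives, 2668 kept direction and call, a share that says nothing of other genes, since the named genes were in part chosen for stable calls. Differences from the other subsets held less often, with 724 of 820 values the same and 95 weaker. Without the low-count filter 9 of 55 differences were weaker. Reversed were Ldha (0.031 with the Y-linked covariate, -0.083 to 0.09 leaving 1 out), Cd8a (0.419 with libraries of 1 sex-transcript pattern) and the difference of Il13 (-0.419 to 0.087 leaving 1 out). WT replicate 2 was the only WT library of that pattern, and the calls of 17 of 183 genes and 28 of 54 differences were lost against it alone, with 1 WT library assumed to vary like the other groups. In TH1, TH17 and Treg, too, WT replicate 2 was the only WT library of that pattern, so the differences had no replicated WT group in that setting. Genes near the floor of 3 counts have fold changes that depend on the prior count.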
